A study of Mus musculus with 18 samples.

Results

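The difference described here is the one between the effect of AOS on a high fat diet and its effect without that diet, in the spleen of ICR mice, an outbred stock. AOS is read here as alginate oligosaccharide, short sugar chains cut from a seaweed polysaccharide, since the labels give only the abbreviation. For each gene the interaction was (HFD+AOS minus HFD) minus (AOS minus control) on the log2(FPKM + 1) scale, so that a positive value means that the difference made by AOS lay higher on the diet than without it. Of 18 RNA libraries in the series, 12 belong to this 2 by 2 design, 3 in each group: high fat diet with AOS at 10 mg/kg (HFD+AOS), the diet alone (HFD), AOS at 10 mg/kg without the diet (AOS), and the group labelled control. All mice were 10 weeks old. The other 6 libraries, from mice on the diet with FMT, taken to be a transfer of faecal microbes, serve only for the spread in the test and for the filter on low values. Whether the 3 libraries in a group stem from different mice is not stated in the labels, so p-values measure the spread between these libraries, which may be technical.

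The spleen holds red pulp, where old red cells are cleared and, in mice, new ones are made, and white pulp, where B and T cells are held in follicles and T cell zones by chemokines. Interferon gamma, made mainly by T and NK cells, raises genes of antigen presentation. Fermentable oligosaccharides and dietary fat both reach the gut first, and the design asks whether the spleen's answer to the sugar depends on the fat.

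Levels are in FPKM, which divides fragments by the length of the transcript and by the size of the library. The table holds 19326 genes, and 18925 of them had a value above 0 somewhere. The depth behind them is unknown, so no counting error is attached. Column totals were 627964 to 831448 FPKM, and 12221 to 12898 genes stood at 1 FPKM or more. Markers of spleen cells were present in all 12 libraries, with the B cell gene *Cd79a* at 507.55 to 1090.65 FPKM, the T cell gene *Cd3e* at 17.32 to 45.4, the red pulp macrophage factor *Spic* at 36.47 to 75.16 and the erythroid factor *Gata1* at 28.51 to 114 FPKM. Haemoglobin transcripts took 28.1%, 19.9% and 12.6% of all FPKM in HFD+AOS replicates 1 to 3, 27.4%, 11% and 10.8% in HFD, 23.3%, 25.6% and 17.2% in AOS and 34.3%, 27.1% and 21.5% in controls. Control replicate 1 stood apart, with a summed 6460 FPKM of 11 neutrophil granule precursor genes, against 1857 and 328.4 in the other controls, while the remaining 9 libraries of the design had 635 or less.

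No single gene had an AOS effect that differed by diet past an adjusted p of 0.05 (limma on log2(FPKM + 1), 12969 genes tested, 0% called). The lowest adjusted p was 0.221, shared by 507 genes. At an unadjusted p under 0.05 stood 2058 genes, or 15.9%, of which 754 (5.81%) were positive and 1304 (10.1%) negative. Every gene named below missed the test, and is described by its values. Over all genes the median interaction was −0.09, from a median of −0.03 for HFD+AOS minus HFD and of 0.05 for AOS minus control, and 34.8% of genes lay above 0 and 65.2% below. HFD+AOS lay above HFD for 41.9% of genes, and AOS above control for 62.4%. Counts at an unadjusted p under 0.05 also depend on single libraries. Without control replicate 1, 525 of 13008 genes were positive and 753 negative at that level. Without control replicate 3, 1345 of 13038 were positive and 2452 negative. List counts without a library are to be read beside such values. The split into positive and negative genes depends on scaling. The negative share of the genes at an unadjusted p under 0.05 was 63.4%, but 53.3% with quantile normalization, 39% with median-ratio scaling and 26.6% when haemoglobin genes were left out before rescaling, which moved the median of all genes to 0.07. In that last setting 1047 of 13372 genes were positive and 379 negative at that level. List counts and medians with haemoglobin genes left out are to be read beside these values. Some list medians are therefore also given relative to the median of all genes. The others are given as they stand and include the shift of −0.09.

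The AOS differences on and off the diet, HFD+AOS minus HFD and AOS minus control, were nearly unrelated across the 12969 genes. Pearson r between them was 0.107 and Spearman rho −0.00414. No gene passed the adjusted limma test for either difference. These 2 differences have no library in common, and genes are not independent of each other. The differences had opposite signs for 7109 genes (54.8%). Spread between 3 libraries a group can by itself weaken such a correlation and mix the signs. Neither the correlation nor this share therefore shows that AOS effects differ by diet. In 95 genes (0.733%) the 3 HFD+AOS libraries all lay below the 3 HFD libraries while the 3 AOS libraries all lay above the 3 controls, and in 37 genes (0.285%) both orders were the other way round.

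**Figure D1:**
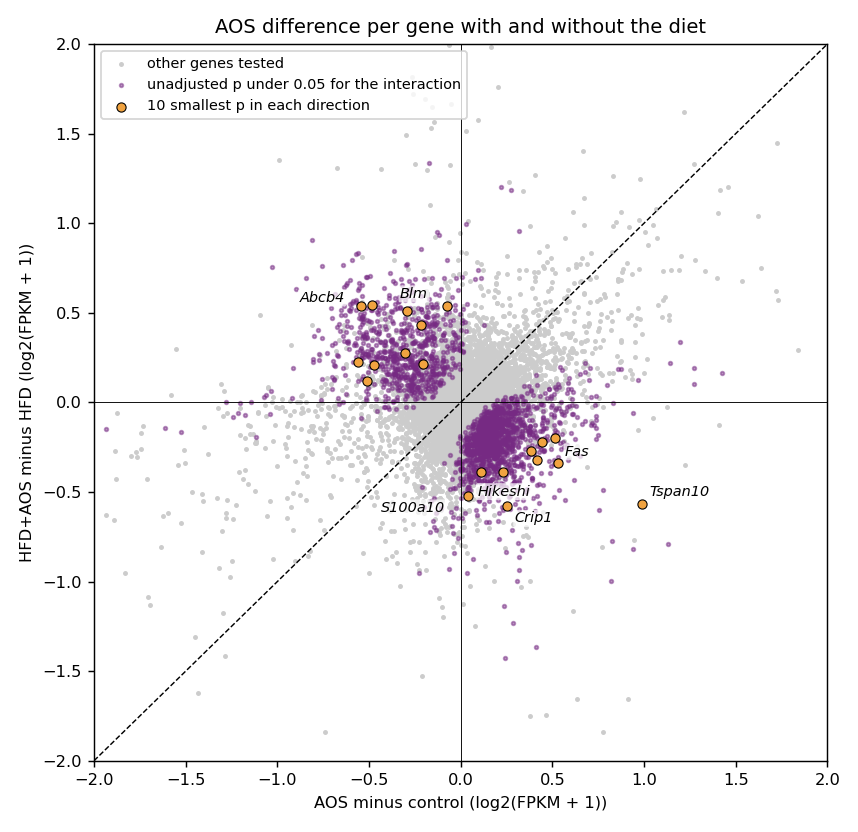
Each point is 1 of 12969 genes, with AOS minus control on the x axis and HFD+AOS minus HFD on the y axis, both in log2(FPKM + 1), and the dashed line marks equal AOS effects on and off the diet. The 20 genes with the smallest p (10 in each direction, orange) lie in the upper left and lower right quadrants, where the effects have opposite signs, and 48 genes fall outside the axis limits of 2.

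The gene with the smallest p was *Tspan10*, a tetraspanin, a protein with 4 membrane spans (chromosome 11, 120442644 to 120446950, plus strand, mm10). It was listed at 1.41, 2.24 and 2.51 FPKM in HFD+AOS spleens and at 3.08, 2.72 and 4.85 in HFD spleens, against 2.46, 3.59 and 2.69 in AOS spleens and 1.13, 1.02 and 0.74 in controls. All HFD+AOS libraries lay below all HFD libraries, and all AOS libraries lay above all controls. The difference was −0.57 on the diet and 0.99 without it, an interaction of −1.55 ± 0.257 (SE, limma adjusted p = 0.221), and it stayed between −1.69 and −1.36 when any 1 library was left out. *Hikeshi*, which carries the chaperone Hsp70 into the nucleus during heat stress (chromosome 7, 89917529 to 89941204, minus strand), had 21.84, 21.92 and 21.96 FPKM in HFD+AOS spleens and 26.08, 29.52 and 31.68 in HFD spleens, against 27.96, 27.87 and 29.39 in AOS spleens and 22.23, 24.18 and 25.96 in controls. The same order held, with no overlap in either pair of groups and an interaction of −0.62 ± 0.108 SE.

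The death receptor gene *Fas* followed that order too. Its levels were 14.4, 14.34 and 12.61 FPKM in HFD+AOS spleens and 16.9, 16.34 and 19.93 in HFD spleens, against 16.78, 17.35 and 15.95 in AOS spleens and 9.07, 12.43 and 12.61 in controls. AOS spleens were near HFD spleens, and the HFD+AOS mean lay between those and the controls (interaction −0.87 ± 0.187 SE). *Cisd3* (−0.74), an iron-sulfur protein of mitochondria, *Klk8* (−0.65), a secreted serine protease, and *Slc35f2* (−0.67), a solute carrier, also had no overlap in either pair. Others differed mainly on the diet. *S100a10*, the partner of annexin A2 on membranes, averaged 202.8 ± 11.89 FPKM in HFD+AOS and 291.6 ± 20.13 in HFD spleens, but 212.8 ± 5.71 in AOS spleens and 208.1 ± 25.23 in controls (SD, n = 3 each), an interaction of −0.56 from −0.52 on the diet and 0.04 without it. *Vkorc1*, the vitamin K epoxide reductase that warfarin blocks, was alike in this, at 29.52, 30.01 and 28.42 in HFD+AOS and 39.12, 38.23 and 38.87 FPKM in HFD spleens (difference −0.39), against 0.11 without the diet. *Crip1*, a LIM domain protein, differed by −0.58 on the diet and 0.25 without it. *Avpi1*, a gene induced by vasopressin, differed mainly without the diet, by 0.52, against −0.20 on it. Leaving out any 1 library left the interactions of these 10 genes negative, which is no support for them, since they were chosen by small p in the same libraries.

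**Figure D2:**
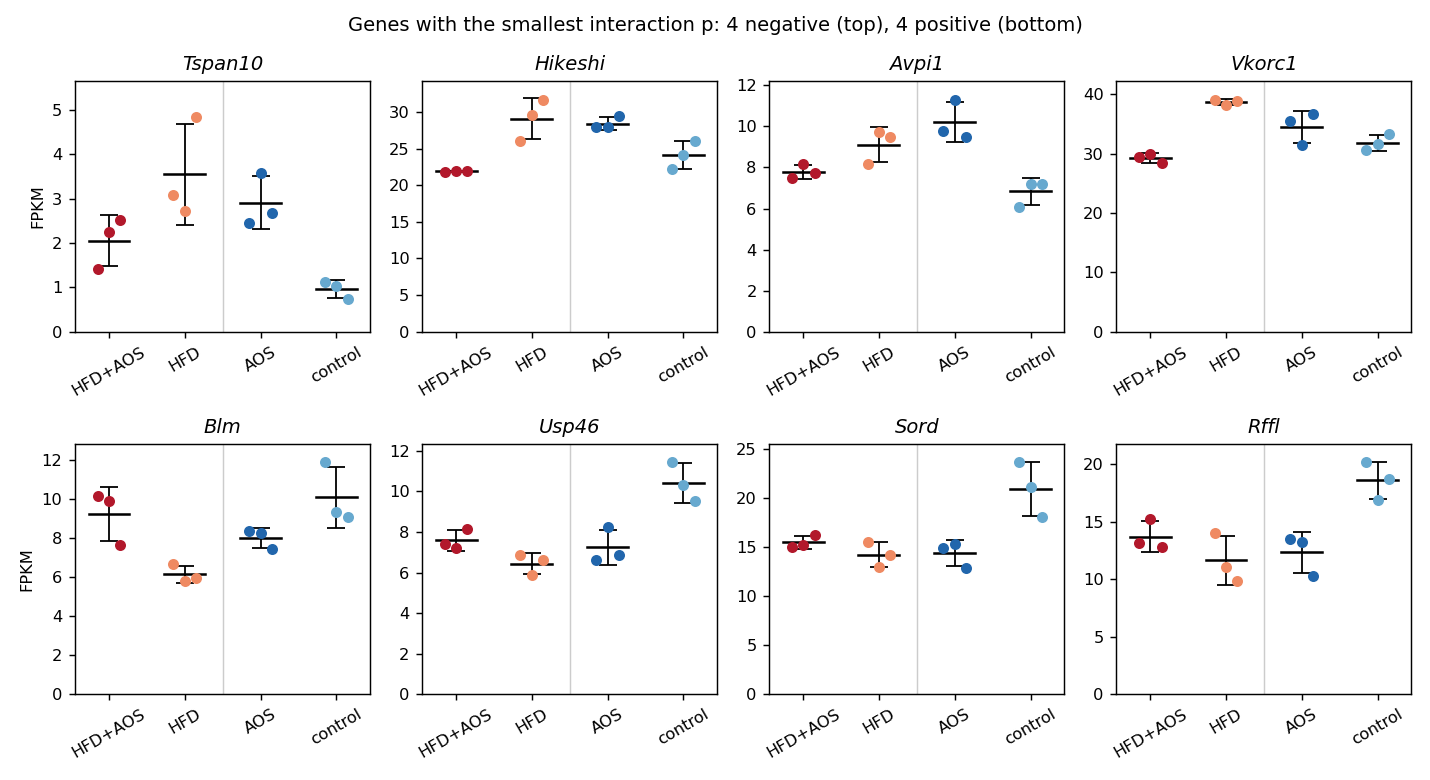
FPKM of 8 genes in the 3 libraries of each group (points), with the mean (bar) and SD (whiskers), for the 4 genes with the smallest p among negative interactions (top) and among positive ones (bottom). *Tspan10* and *Hikeshi* are lower in every HFD+AOS than in every HFD library and higher in every AOS than in every control library, and *Blm* and *Usp46* show the reverse.

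Among the 10 positive genes with the smallest p were 3 that act on DNA and chromosomes. *Blm*, a helicase of DNA repair (chromosome 7, 80454733 to 80535119, minus strand), had 10.18, 9.93 and 7.66 FPKM in HFD+AOS spleens and 6.66, 5.82 and 5.98 in HFD spleens, against 8.36, 8.29 and 7.44 in AOS spleens and 11.9, 9.35 and 9.08 in controls. Neither pair of groups overlapped, and the difference was 0.51 on the diet and −0.29 without it (interaction 0.80 ± 0.155 SE, limma adjusted p = 0.221). *Chek2*, the checkpoint kinase activated by broken DNA, had the same order at 8.93 ± 1.42 FPKM in HFD+AOS and 6.35 ± 0.774 in HFD, against 8.19 ± 0.305 in AOS and 9.69 ± 1.01 in control spleens (interaction 0.64). *Ncapd3*, a subunit of condensin II, had an interaction of 0.58, with 1 HFD+AOS library inside the HFD range.

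The other 7 positive genes have varied roles. *Slc14a1*, the urea transporter of red cells, was at 33.64, 28.43 and 22.91 FPKM in HFD+AOS spleens and 22.31, 17.05 and 17.79 in HFD spleens, against 27.66, 30.41 and 23.76 in AOS spleens and 50.13, 34.8 and 32.15 in controls. Again neither pair overlapped, and controls were the highest group (interaction 1.02 ± 0.245 SE). *Abcb4*, a phosphatidylcholine transporter, had an interaction of 1.09 from differences of 0.54 on the diet and −0.54 without it. *Sord*, sorbitol dehydrogenase, differed mainly without the diet. It was at 14.94, 15.36 and 12.87 FPKM in AOS spleens against 23.65, 21.11 and 18.12 in controls, and at 15.02, 15.2 and 16.27 in HFD+AOS against 15.55, 13.02 and 14.15 in HFD spleens. Controls stood alone at the top for this gene, while the other 3 groups shared a range. The ubiquitin ligase gene *Rffl* (0.79) had the same form. The deubiquitinase gene *Usp46* (0.68) was also highest in controls, but every HFD+AOS library lay above every HFD library, at 7.42, 7.19 and 8.16 against 6.85, 5.87 and 6.61 FPKM. *Cpeb3* (0.61), which controls translation of bound mRNAs, differed mainly on the diet, by 0.54 against −0.08 without it, and *Fbxo3* (0.42), a substrate receptor of ubiquitin ligases, differed by 0.21 and −0.20.

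Genes of red cell precursors were higher in HFD+AOS than in HFD spleens and lower in AOS than in control spleens. All 21 erythroid genes had that pair of signs, with a median difference of 0.47 on the diet and −0.62 without it. Their median interaction was 1.12, or 1.21 above the median of all genes, and 19 of 21 stood at an unadjusted p under 0.05 with a positive sign, against 5.81% of all genes. None passed the adjusted test. *Epb42*, which ties the red cell skeleton to its membrane, was at 41.91, 34.64 and 21.54 FPKM in HFD+AOS spleens and 31.45, 13.69 and 19.57 in HFD spleens, against 30.09, 36.34 and 26.59 in AOS spleens and 58.95, 45.79 and 46.27 in controls. AOS and control spleens did not overlap, whereas HFD+AOS and HFD spleens did, through HFD replicate 1 and HFD+AOS replicate 3 (interaction 1.29 ± 0.369 SE, limma adjusted p = 0.221). *Tfrc*, the transferrin receptor that brings iron into the cell, had an interaction of 1.02 and *Sptb*, red cell spectrin, of 1.15, and both overlapped on the diet too.

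The mean over the erythroid list was 6.21, 5.95 and 5.39 on the log2 scale in HFD+AOS spleens and 6.01, 5 and 5.15 in HFD spleens, against 5.89, 6.12 and 5.6 in AOS spleens and 6.85, 6.4 and 6.14 in controls. Controls were above every AOS library, and the 2 groups on the diet overlapped. The haemoglobin share of FPKM given above moved with this list, and its part in the result was not tested. None of the 21 genes had groups that stayed apart on both sides, an order that only 0.285% of all genes had in this direction. The count at an unadjusted p under 0.05 was 14 to 21 when any 1 library was left out, and the median 0.88 to 1.45.

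Haem synthesis followed. All 13 of its genes had a positive interaction (median 0.90), and 9 of them stood at an unadjusted p under 0.05, against 5.81% of all genes. The medians were 0.35 on the diet and −0.46 without it. *Cpox*, coproporphyrinogen oxidase, was at 77.01 ± 19.5 FPKM in HFD+AOS and 64.37 ± 18.2 in HFD, against 79.16 ± 10.9 in AOS and 127.1 ± 23.1 in control spleens (interaction 0.93). *Abcb10*, which acts in haem synthesis in mitochondria, and *Abcb6*, a porphyrin transporter, were both at 0.96. Without HFD+AOS replicate 1 the count was 5, and it was also 5 without control replicate 1. The globin genes themselves, 6 of them tested, had a median interaction of 0.76 with 0 at an unadjusted p under 0.05.

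The promoter of *Epb42* is shown because it is the erythroid gene with the smallest p and holds the letters bound by GATA factors, which drive red cell genes. It is RefSeq sequence on GRCm38.p6, chr2:121036828-121037127, minus strand, written 5′ to 3′ from 250 bases before the start of transcription to 50 after, with AGATAA (here on the opposite strand, as its reverse complement) in capitals at −226 to −221.
Epb42: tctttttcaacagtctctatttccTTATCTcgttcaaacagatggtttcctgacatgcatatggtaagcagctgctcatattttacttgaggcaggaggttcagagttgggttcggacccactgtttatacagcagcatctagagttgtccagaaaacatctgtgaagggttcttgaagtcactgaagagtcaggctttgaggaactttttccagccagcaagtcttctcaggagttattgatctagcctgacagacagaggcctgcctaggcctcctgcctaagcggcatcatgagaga
AGATAA was found on either strand in 7 of 16 erythroid promoters that had an entry in the table, and in 2 of 10 haem synthesis promoters, against 11.4% of 27025 promoters of the same length. CCACACCC, the letters bound by KLF1, was in 1 of 16 and 0 of 10, against 3.57%. The promoters of *Tfrc* and *Sptb*, the other named erythroid genes, held neither set of letters in the same window. These matches describe letters in a window and say nothing of binding.

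Genes of dividing cells were higher on the diet with AOS than without it, in all 30 of the cell cycle list and all 27 of the DNA replication list, against 41.9% of all genes. Without the diet, AOS lay below control for 24 of 30 and 18 of 27, whereas it lay above control for 62.4% of all genes. The medians were 0.44 on the diet and −0.14 without it for the cell cycle, and 0.34 and −0.06 for DNA replication. All 30 cell cycle genes had a positive interaction (median 0.61), 12 at an unadjusted p under 0.05, as had 26 of 27 replication genes (median 0.40), 8 at that level. Over all genes 5.81% were positive at that level. *Cdc6*, which loads the replicative helicase, was at 37.09, 33.01 and 24.23 FPKM in HFD+AOS spleens and 24.29, 17.3 and 19.59 in HFD spleens, against 28.72, 30.82 and 26.47 in AOS spleens and 43.94, 33.84 and 29.29 in controls. Only HFD replicate 1 reached into the HFD+AOS range, at 24.29 against 24.23, and the groups off the diet overlapped (interaction 0.88 ± 0.231 SE, limma adjusted p = 0.221).

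*Mki67*, the marker of cycling cells, had an interaction of 0.87. Its levels were 144.65, 130.01 and 88.67 FPKM in HFD+AOS and 109.71, 60.77 and 81.38 in HFD spleens, against 122.65, 126.71 and 108.19 in AOS and 191.62, 144.83 and 121.43 in control spleens. Both pairs overlapped. *Gins2*, a subunit of the replicative helicase, differed mainly on the diet, at 17.5 ± 3.48 in HFD+AOS against 10.32 ± 0.882 in HFD spleens (0.69), and 15.85 ± 1.09 in AOS against 14.78 ± 2.95 in control spleens (0.11). *Rrm2*, a subunit of the enzyme that makes deoxynucleotides, had an interaction of 0.81, and the spindle gene *Cenpf* of 0.70. The cell cycle mean was highest, like the erythroid mean, in control replicate 1 at 5.47 and lowest in HFD replicate 2 at 4.17. The cell cycle count rested on single libraries. It was 1 without HFD+AOS replicate 1, HFD replicate 2 or control replicate 1, and 2 to 7 without HFD+AOS replicate 2, HFD replicate 3, AOS replicates 1 or 3 or control replicate 2. Without HFD+AOS replicate 3, HFD replicate 1 or control replicate 3 it was 25 to 28. The count over all genes moved too. At an unadjusted p under 0.05, 525 genes were positive without control replicate 1 and 1345 without control replicate 3, against 754 with all libraries. Without control replicate 1 the median interaction was 0.39 for the cell cycle and 0.22 for DNA replication, whose count ran from 2 without HFD+AOS replicate 1, HFD replicate 2 or control replicate 1 to 21 without control replicate 3.

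**Figure D3:**
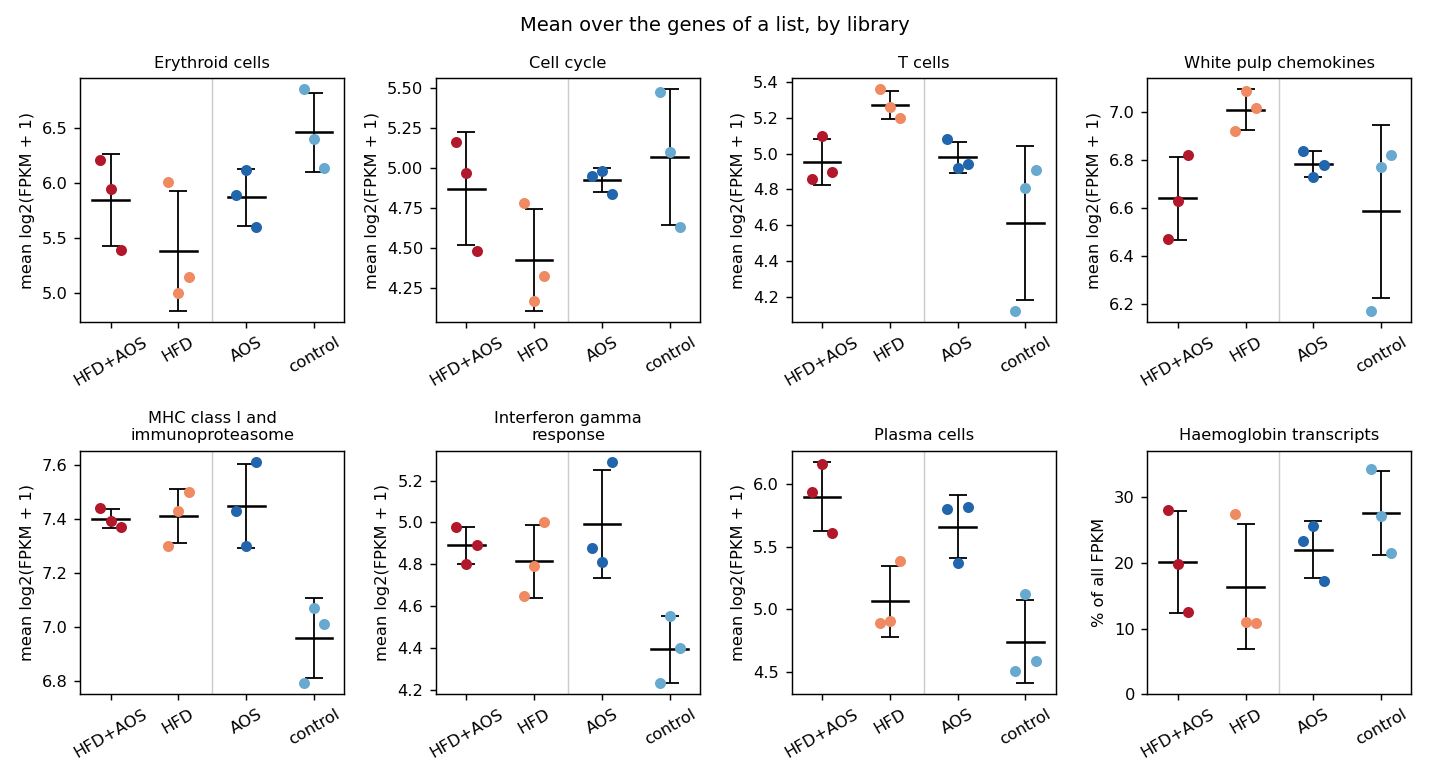
Mean log2(FPKM + 1) over the tested genes of 7 lists, and the haemoglobin share of FPKM, in each library (points) with the group mean (bar) and SD (whiskers). Group means of erythroid and cell cycle genes are lowest in HFD and highest in control spleens, and those of T cell genes are highest in HFD and lowest in control spleens. Single libraries overlap between groups in the erythroid and T cell lists. MHC class I and interferon gamma means are low in the 3 controls only, and plasma cell group means are higher with AOS on and off the diet.

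T cell genes had the opposite form. All 17 had a negative interaction (median −0.66, or −0.57 relative to all genes), and 14 stood at an unadjusted p under 0.05, against 10.1% of all genes that are negative at that level. The median difference was −0.32 on the diet, with 16 of 17 lower in HFD+AOS, and 0.33 without it, with 17 of 17 higher in AOS. *Trat1*, an adaptor that stabilises the T cell receptor, was at 5.94, 7.59 and 8.44 FPKM in HFD+AOS spleens and 13.5, 12.62 and 16.08 in HFD spleens, against 8.53, 9.8 and 9.72 in AOS spleens and 4.25, 7.73 and 11.43 in controls. On the diet the groups lay far apart, and without it control replicate 3 exceeded every AOS library (interaction −1.18 ± 0.303 SE, limma adjusted p = 0.221). *Cd4*, the co-receptor of helper T cells, had no overlap on either side, at 46.09, 50.06 and 50.32 in HFD+AOS and 59.83, 58.29 and 65.39 in HFD spleens, against 51.82, 51.15 and 55.94 in AOS and 25.34, 43.26 and 45.94 FPKM in control spleens. *Cd3g*, a signalling chain of the receptor, and *Lck*, the kinase that starts its signal, also had no overlap in either pair. That made 3 of 17 genes of the list, against 0.733% of all genes with this order.

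*Cd3g* averaged 81.28 ± 3.64 FPKM in HFD+AOS and 112.1 ± 4.27 in HFD spleens, against 92.87 ± 3.44 in AOS and 71.25 ± 19.6 in control spleens. In bulk tissue, fewer T cells and less of these transcripts per cell cannot be told apart. The T cell mean was 4.86, 5.10 and 4.90 on the log2 scale in HFD+AOS and 5.36, 5.26 and 5.20 in HFD spleens, against 5.08, 4.92 and 4.94 in AOS and 4.12, 4.81 and 4.91 in control spleens. HFD spleens stood above all others, and control replicate 1 stood below. The count was 11 to 16 when any 1 library was left out. It was 9 with haemoglobin genes left out before rescaling, where 379 of 13372 genes were negative at an unadjusted p under 0.05. The median was −0.45 without control replicate 1.

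Regulatory T cells gave 7 of 8 negative interactions (median −0.48), 3 of them at an unadjusted p under 0.05, with 1 positive at that level. Over all genes 15.9% stood at that level in either direction. *Foxp3*, their defining factor, was at 4.57, 4.85 and 4.28 FPKM in HFD+AOS and 6.69, 6.64 and 4.96 in HFD spleens, against 4.73, 4.59 and 4.13 in AOS and 1.89, 4.07 and 2.88 in control spleens. Neither pair overlapped, though HFD replicate 3 was close to HFD+AOS replicate 2. The count in either direction for regulatory T cells, 4 in all, was 2 without HFD+AOS replicate 3, HFD replicate 2, AOS replicate 1 or control replicate 1, and the median was −0.75 with a pseudocount of 0.1. The list of T cell activation and inhibitory receptors differed in form, since its median was 0.05 on the diet and 0.47 without it, where all 17 genes were higher in AOS. *Icos*, a co-stimulator, was at 9.90 ± 1.75 in HFD+AOS and 10.39 ± 1.56 in HFD, against 9.77 ± 0.359 in AOS and 6.38 ± 0.816 FPKM in control spleens. For this list 3 of 17 (17.6%) stood at an unadjusted p under 0.05, near the 15.9% of all genes in either direction. The count was 8 without control replicate 2, 7 without control replicate 3, 1 without control replicate 1 and 0 with haemoglobin genes left out.

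The genes that place lymphocytes in the white pulp were lower with AOS on the diet in 11 of 11, by a median of −0.39, and higher without it in 9 of 11, by 0.19. All 11 interactions were negative (median −0.58), 8 at an unadjusted p under 0.05, against 10.1% of all genes that are negative at that level. *Ltb*, a lymphotoxin needed to form white pulp, was at 274.1, 262.39 and 265.4 FPKM in HFD+AOS and 361.74, 348.06 and 318.83 in HFD spleens, against 295.94, 269.4 and 283.29 in AOS and 207.26, 271.78 and 271.28 in control spleens. The groups on the diet stood apart, and those off it met at AOS replicate 2 and control replicates 2 and 3. *Ccl21a*, the chemokine that draws T cells into their zone, averaged 976.3 ± 236 in HFD+AOS and 1406 ± 222 in HFD, against 1141 ± 99.9 in AOS and 798.9 ± 282 FPKM in control spleens (interaction −1.11). *Cxcr5*, the receptor that brings B cells into follicles, had an interaction of −0.58. The count of 8 dropped to 2 without HFD+AOS replicate 1, HFD replicate 2, AOS replicate 1 or control replicate 1, to 3 to 5 without HFD+AOS replicate 2, HFD replicates 1 or 3, AOS replicate 3 or control replicate 2, and to 3 with haemoglobin genes left out or quantile normalization. The median without control replicate 1 was −0.36.

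B cell genes gave 12 of 12 negative interactions (median −0.43), with all 12 lower in HFD+AOS than HFD and all 12 higher in AOS than control, by medians of −0.24 and 0.15. At an unadjusted p under 0.05 stood 6, against 10.1% of all genes that are negative at that level. They were led by *Cd79b* of the B cell receptor (−0.47), the inhibitory receptor gene *Cd72* (−0.34) and *Pax5* (−0.49), the factor that holds B cell identity. The B cell count was 1 without HFD replicate 2 and 2 without HFD+AOS replicate 1, without control replicate 1 or with haemoglobin genes left out. MHC class II genes, which show antigen to helper T cells, gave 10 of 11 negative interactions (median −0.42), 6 at that level. *H2-Ab1* was at 1197.32, 1082.08 and 1217.47 FPKM in HFD+AOS and 1449.73, 1635.92 and 1510.93 in HFD spleens, against 1344.56, 1260.11 and 1280.1 in AOS and 882.44, 1078.83 and 1356.58 in control spleens. It differed without overlap on the diet, and control replicate 3 was above every AOS library. *H2-Eb1*, the exception, had a positive interaction of 2.29, the highest of the list, but it did not stand at an unadjusted p under 0.05. The class II median was −0.25 without control replicate 1 and −0.66 without control replicate 3. In the latter setting the class II count was 10, and 2452 of 13038 genes were negative at that level. With haemoglobin genes left out the class II count was 2, and 379 of 13372 genes were negative at that level.

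**Figure D4:**
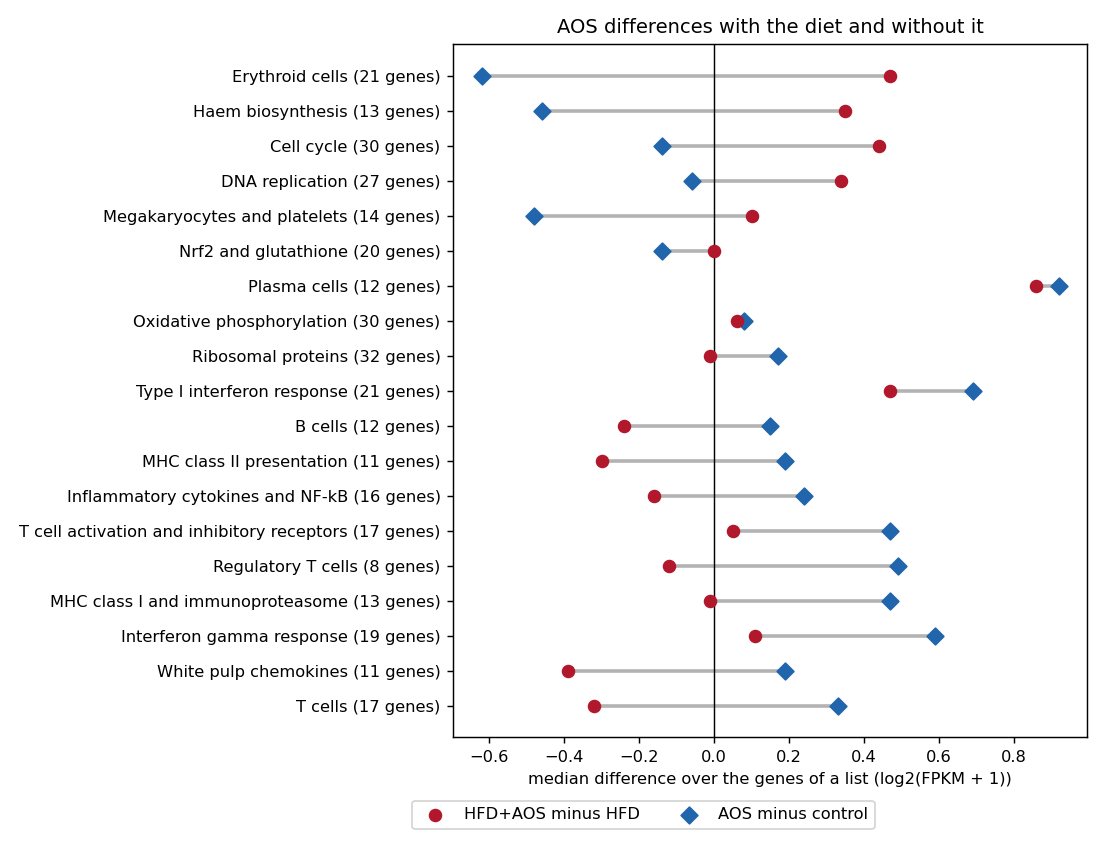
Median difference over the tested genes of 19 lists, for HFD+AOS minus HFD (red circles) and AOS minus control (blue diamonds), in log2(FPKM + 1). Erythroid and haem genes lie above 0 on the diet and below it off the diet, T cell and white pulp genes lie the other way round, and plasma cell genes lie near 0.9 in both.

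Genes of MHC class I and of the interferon gamma response lay higher with AOS mainly where the diet was absent. Their medians were −0.01 and 0.11 on the diet and 0.47 and 0.59 without it. All 13 MHC class I and immunoproteasome genes had a negative interaction (median −0.51), 10 at an unadjusted p under 0.05, as had all 19 interferon gamma genes tested (median −0.55), 9 of them at that level. Over all genes 10.1% were negative at that level. All 13 and all 19 were higher in AOS than in control spleens. *Nlrc5*, which switches on class I genes, was at 16.54, 19.74 and 16.71 FPKM in HFD+AOS spleens and 16.72, 18.11 and 18.11 in HFD spleens, against 19.43, 15.88 and 21.39 in AOS spleens and 8.3, 12.25 and 10.09 in controls. Controls were below all 9 other libraries, which shared a range (interaction −0.83 ± 0.232 SE, limma adjusted p = 0.221). *Tap2*, a subunit of the peptide pump into the endoplasmic reticulum, was at 61.98 ± 0.836 in HFD+AOS and 61 ± 1.82 in HFD, against 63.41 ± 2.71 in AOS and 45.6 ± 5.17 FPKM in control spleens. *Psmb10*, an immunoproteasome subunit, had an interaction of −0.42.

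*Irf1*, a transcription factor of the interferon response, was at 61.55, 65.98 and 68.83 FPKM in HFD+AOS and 67.76, 74.28 and 72.45 in HFD spleens, against 68.12, 67.7 and 68.49 in AOS and 41.96, 54.34 and 58.75 in control spleens. Only controls stood apart (interaction −0.53). *Gbp5*, a guanylate-binding protein of defence against microbes, had an interaction of −0.63, and *Tgtp2*, a GTPase of the same response, of −0.99. *Tgtp2* has a near-identical neighbour, *Tgtp1*, and reads may be split between them, as they may among MHC class I genes. The class I mean was 7.44, 7.39 and 7.37 on the log2 scale in HFD+AOS and 7.30, 7.43 and 7.50 in HFD spleens, against 7.43, 7.30 and 7.61 in AOS and 6.79, 7.07 and 7.01 in control spleens. With haemoglobin genes left out the count of class I genes was 2 and the median −0.33, where 379 of 13372 genes were negative at an unadjusted p under 0.05. Relative to the median of all genes the class I median was −0.42, and −0.42 to −0.4 with the 3 alternative scalings. The interferon gamma count was 2 without AOS replicate 3, 3 without HFD replicate 3, 4 without control replicate 1 or with haemoglobin genes left out, and 5 without HFD+AOS replicate 2 or with median-ratio scaling.

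The promoters of *Irf1*, *Gbp5* and *Tgtp2* are shown because these genes differed together and carry motifs known from interferon-induced promoters. They are RefSeq sequences on GRCm38.p6, from 250 bases before the start of transcription to 50 after, at chr11:53769764-53770063 (plus strand), chr3:142496684-142496983 (plus strand) and chr11:49064163-49064462 (minus strand). Capitals mark TTCNNNGAA, the GAS letters, at −90 to −82 in *Irf1*, at −245 to −237 and −52 to −44 in *Gbp5* and at −81 to −73 in *Tgtp2*. They also mark the ISRE, bound by IRF factors, which is GAAA on both sides of NN, at −165 to −156 in *Gbp5* (on the opposite strand) and at −70 to −61 in *Tgtp2*.
Irf1: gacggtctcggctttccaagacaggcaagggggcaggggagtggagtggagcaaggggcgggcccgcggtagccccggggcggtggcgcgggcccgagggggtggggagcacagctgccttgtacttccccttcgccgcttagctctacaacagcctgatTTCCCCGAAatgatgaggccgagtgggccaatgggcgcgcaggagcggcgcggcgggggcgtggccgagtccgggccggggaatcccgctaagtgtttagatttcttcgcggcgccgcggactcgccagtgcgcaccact
Gbp5: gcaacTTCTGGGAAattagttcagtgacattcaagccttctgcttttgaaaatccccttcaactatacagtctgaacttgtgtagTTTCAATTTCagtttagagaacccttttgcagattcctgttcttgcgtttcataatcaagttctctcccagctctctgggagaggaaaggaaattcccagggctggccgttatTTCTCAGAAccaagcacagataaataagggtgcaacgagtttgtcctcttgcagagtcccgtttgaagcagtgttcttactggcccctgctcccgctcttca
Tgtp2: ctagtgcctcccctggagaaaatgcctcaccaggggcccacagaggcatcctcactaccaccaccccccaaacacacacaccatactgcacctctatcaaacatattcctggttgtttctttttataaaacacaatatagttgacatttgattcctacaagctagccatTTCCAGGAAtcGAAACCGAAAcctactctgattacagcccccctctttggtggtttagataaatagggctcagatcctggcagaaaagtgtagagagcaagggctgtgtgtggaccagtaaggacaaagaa
The GAS letters were found on either strand in 7 of 14 interferon gamma promoters with an entry and in 1 of 11 of the MHC class I list, against 8.47% of 27025 promoters. The ISRE letters were in 11 of 14 and 3 of 11, against 3.49%. A match is no evidence of binding in these spleens.

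Type I interferon genes did not share this form. Their median was 0.47 on the diet and 0.69 without it, with 20 of 21 higher in HFD+AOS and 19 of 21 higher in AOS. The median interaction of −0.42 turned on 1 library. The list mean of AOS replicate 3 was 6.03 on the log2 scale, against 4.97 and 4.26 in the other AOS libraries, and without it the median interaction was 0.19. Without AOS replicate 2 it was −0.79 and 11 genes of the list stood at an unadjusted p under 0.05, where 2007 of all 12971 genes did. With all libraries 1 of 21 did (4.76%, against 15.9% of all genes), and its interaction was positive.

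Inflammatory genes of the NF-kB pathway, which drives cytokines and survival, gave 14 of 16 negative interactions (median −0.44). Of these, 9 stood at an unadjusted p under 0.05, against 10.1% of all genes. The medians were −0.16 on the diet and 0.24 without it. *Tnf*, the cytokine, was at 8.27, 8.69 and 7.37 FPKM in HFD+AOS and 10.75, 9.06 and 8.86 in HFD spleens, against 8.71, 7.34 and 8.16 in AOS and 5.63, 5.84 and 5.26 in control spleens. Neither pair overlapped, and the same held for *Traf1*, an adaptor of TNF receptors (interaction −0.65). Controls were lowest for both. *Nfkb2*, a subunit of the alternative pathway, averaged 44.24 ± 2.04 in HFD+AOS and 57.01 ± 3.96 in HFD, against 47.41 ± 1.61 in AOS and 41.64 ± 8.51 FPKM in control spleens (−0.56). The NF-kB count was 5 with haemoglobin genes left out, and the median −0.26 without control replicate 1. Toll-like receptors and adaptors, the sensors of microbial products, had a smaller median of −0.22, with *Tlr6* at −0.38. At an unadjusted p under 0.05 stood 4 of 16 (25%), against 10.1% of all genes that are negative at that level. That count was 0 without HFD+AOS replicate 1, with haemoglobin genes left out or in a fit to the 12 libraries alone, and 1 or 2 without HFD+AOS replicate 2, HFD replicates 2 or 3, any AOS replicate or control replicates 1 or 2. Inflammasome genes stood at −0.16, with 3 of 10, among them *Casp1*, the caspase that matures interleukin 1 (−0.47). With haemoglobin genes left out they stood at 0.01, where the median of all genes was 0.07.

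**Figure D5:**
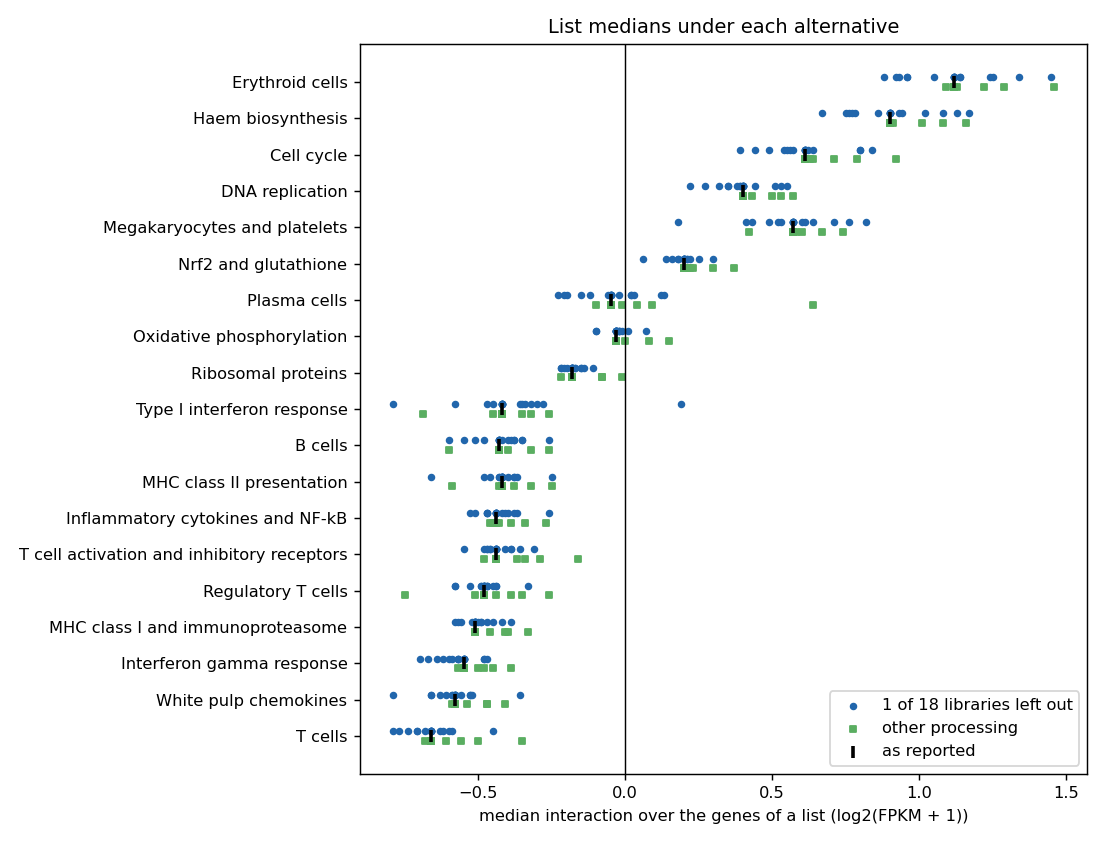
Median interaction of the same 19 lists in log2(FPKM + 1) as reported (black bars), with 1 of the 18 libraries left out (blue) and with other processing (green). Erythroid, haem, cell cycle and DNA replication medians stay above 0 and T cell, white pulp, MHC class I, interferon gamma and NF-kB medians stay below 0 in all of these, whereas the type I interferon median reaches 0.19 without AOS replicate 3. Some settings cannot move a gene's interaction, namely those without FMT libraries, with other filters, with other variance options or with the replicate block. There a list median can change only through which genes are tested.

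The same 4 group means can be read across the design. For erythroid genes the median of HFD+AOS minus AOS was 0.00 and that of HFD minus control −1.08. T cell genes gave −0.03 and 0.68, cell cycle genes −0.06 and −0.65, white pulp genes −0.13 and 0.47, and interferon gamma genes −0.08 and 0.47, so that the medians of these 5 lists were nearer 0 between the AOS groups. Other lists went the other way, among them heat shock genes at −0.46 and 0.02, exocrine pancreas genes at 3.5 and 1.4 and ribosomal protein genes at −0.13 and 0.04. This is the interaction in another arrangement and adds no test of its own.

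Among metabolic genes the signs were mixed. *Fasn*, fatty acid synthase and a target of LXR, was at 8.21, 9.58 and 10.06 FPKM in HFD+AOS and 11.55, 10.3 and 11.69 in HFD spleens, against 15.02, 20.48 and 12.93 in AOS and 8.38, 11.65 and 11.59 in control spleens. Neither pair overlapped and AOS spleens were the highest (interaction −0.81 ± 0.198 SE). Other LXR targets went both ways, with *Lpcat3*, which remodels phospholipids, at 0.69 and *Apoe*, the lipoprotein, at −0.51. The list's median was −0.11, with 4 of 12 at an unadjusted p under 0.05, against 15.9% of all genes in either direction. With haemoglobin genes left out it was 0.06 with 2, where the median of all genes was 0.07. Glycolysis genes had a median of −0.15 and 7 of 20 at that level, 2 positive and 5 negative. *Pfkfb3*, which sets the level of the activator of glycolysis, had −0.47 and no overlap in either pair, *Hk1*, the hexokinase, had 0.64, and the list's median was 0.02 with haemoglobin genes left out. The glycolysis count was 4 without AOS replicate 3. Nrf2 and glutathione genes stood at 0.20, with 3 at that level in each direction: *Gclc*, which limits glutathione synthesis, was among the positive at 0.48, and the peroxide reductase gene *Prdx1* (−0.43) and the cystine transporter gene *Slc7a11* (−0.59) among the negative. Their count of 6 in all was 3 without HFD+AOS replicate 1 or control replicate 1, 13 without control replicate 3 and 2 with haemoglobin genes left out, and the median was 0.06 without control replicate 1. Without control replicate 3, 3797 of 13038 genes stood at that level in either direction. Ribosomal protein genes had 32 of 32 negative, by a median of −0.18, with 8 at that level, against 10.1% of all genes. Relative to the median of all genes the ribosomal median was −0.09. With haemoglobin genes left out the ribosomal count was 0 and the median −0.01. Many pseudogenes of ribosomal proteins can share reads. Among receptors for microbial metabolites and xenobiotics, *Cyp1b1*, a target of the aryl hydrocarbon receptor, was at 12.64, 15.88 and 9.14 FPKM in HFD+AOS and 18.53, 13.71 and 18.98 in HFD spleens, against 12.71, 13.39 and 15.73 in AOS and 6.47, 9.44 and 10.77 in control spleens (interaction −1.05). The AOS group lay above the controls and the groups on the diet overlapped.

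In some lists the AOS differences were alike on and off the diet. All 12 plasma cell genes were higher in HFD+AOS than in HFD and higher in AOS than in control spleens, by medians of 0.86 and 0.92. Their median interaction was −0.05, between −0.23 and 0.13 when any 1 library was left out, and 1 of 12 stood at an unadjusted p under 0.05, against 15.9% of all genes. With estimated library weights the median interaction was 0.64. Oxidative phosphorylation genes had a median interaction of −0.03 with 0 of 30.

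Markers of other organs and of neutrophil precursors also varied between groups or between libraries of a group, and their part in the results above was not tested. The summed FPKM of 8 adipocyte genes was 10.6, 77.16 and 39.31 in HFD+AOS and 115.3, 83.97 and 93.62 in HFD, against 54.41, 151.6 and 85.94 in AOS and 18.49, 97.18 and 66.85 in control libraries. All 8 had a negative interaction (median −1.76), 3 at an unadjusted p under 0.05, among them *Plin1*, the coat of fat droplets (−1.82). Over all genes 10.1% were negative at that level. The adipocyte count was 0 without HFD+AOS replicate 1, HFD replicate 1, AOS replicate 2 or control replicate 1, and 7 without HFD+AOS replicate 2. Exocrine pancreas genes summed to 175.7, 13130 and 5846 FPKM in HFD+AOS and 623.3, 2088 and 99 in HFD, against 42.34, 598.4 and 356.7 in AOS and 1571, 259.7 and 22.01 in control libraries, with 0 of 12 at that level (median 2.13). The libraries of each group lay far apart. Sperm genes summed to 6 FPKM or less in each HFD+AOS, HFD and AOS library, against 33.03, 277.5 and 17.35 in controls, and *Prm1* (3.11), *Prm2* (2.83) and *Tnp1* (2.52), which package sperm DNA, had positive interactions. Neutrophil granule precursors had 11 of 11 positive (median 1.5) with 0 at an unadjusted p under 0.05, and their median was 0.54 without control replicate 1 and 2.64 without control replicate 3, where all 11 were at that level. In that last setting 1345 of 13038 genes were positive at that level.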

How the data were processed

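Spleen RNA of ICR mice was sequenced from libraries made with Illumina protocols, per the labels. Alignment with Bowtie 0.12.2 and the build mm10 are named in the submitters' processing notes. The authors deposited 1 table with values of 2 decimals, read here from the values themselves as FPKM. The counting program, annotation and filters are not stated in the labels or header, and depth is unknown. Columns were matched to groups by the codes in their headers, and 6 rows share a symbol with another row while 26 carry a date in place of a symbol.

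Values were analysed as log2(FPKM + 1) for the 12969 genes whose mean reached 1 FPKM in any of the 6 groups. The interaction was a contrast in limma 3.58.1, run in R 4.3.3 with statmod 1.5.0 and with trended, robust variance and fitted to 6 group means of 18 libraries with 12 residual degrees of freedom, and adjusted over all genes by Benjamini and Hochberg at 0.05. The method was tested on simulated data. Pooling the spread over groups can misstate p where groups vary unequally.

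Named genes needed a mean of at least 2 FPKM in 1 of the 4 groups. They were the 10 with the smallest p in each direction, since none passed, and the 3 with the smallest p from each of 54 lists with at least 3 members at an unadjusted p under 0.05. Antigen receptor segments, dates and provisional symbols were left out. *Lck* and *H2-Eb1* were named after their values were seen. The members and lists were chosen with earlier results of these data known, so lists are described by counts and medians beside those of all genes, with no list test. Some items are not reported here.

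Alternatives were a pseudocount of 0.1, no filter and a mean of at least 5 FPKM, median-ratio and quantile scaling, haemoglobin genes left out before rescaling, the 12 libraries alone, library weights, no trend or robust variance, the replicate number as a block, and each library left out. Promoters, from RefSeq on GRCm38.p6, covered 76 of 91 named genes, with the first start site listed for a symbol. Gene positions came from GENCODE vM21 on GRCm38, the assembly that mm10 names. Figures were drawn with matplotlib 3.10.9, and other steps used pandas 2.3.3 and numpy 2.4.6 under Python 3.11.15.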

Additional observations from a re-analysis of the deposited data

How the results depend on the processing

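The count of genes past an adjusted p of 0.05 in limma was 0 in 27 of 28 alternatives, among them all 18 that leave out 1 library, where the lowest adjusted p was 0.0544 without control replicate 3. The exception was a fit with estimated library weights, which called 6205 genes and put 7096 at an unadjusted p under 0.05. It gave control replicate 2 a weight of 31.8 and control replicates 1 and 3 weights of 0.168 and 0.178. Leaving out 1 library put 1278 (without control replicate 1) to 3797 (without control replicate 3) genes at an unadjusted p under 0.05, with 1318 without HFD replicate 2. Other processing, the block apart, gave 1426 with haemoglobin genes left out to 2431 with no filter. With the replicate number as a block the count past the threshold was 0 and 2715 genes stood at an unadjusted p under 0.05, with 25 cell cycle genes against 12 and 16 DNA replication genes against 8. Labels do not say that equal numbers mark a pair. Residuals of libraries with equal numbers correlated at −0.35 to 0.493 over 18 pairs. Only 12 of these were over 0.1, so the numbers were not taken as pairs. As a hint the other way, a library correlated best with its own number in 21 of 36 comparisons with another group. None of the 91 named genes changed sign in 2539 values under alternatives, and 82 of these passed an adjusted p of 0.05, all with library weights. Many of these values could not differ from those reported. Leaving out FMT libraries, other filters, other variance options and the block do not change a gene's interaction. The named genes were also chosen by small p in these same libraries, so a sign that stays is no support for their interactions. Of 1511 list medians, 71 moved by more than 1 SD, but in those same settings a median could move only through which genes were tested. With 3 libraries a group and unknown depth, small differences of low genes may not be detectable.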

Other observations

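Some genes were set apart in the HFD+AOS spleens within the 2 by 2 design. *Dbp*, a clock-controlled transcription factor, was at 12.53, 15.9 and 16.24 FPKM in HFD+AOS and 7.36, 7.14 and 6.94 in HFD spleens, against 9.69, 8.78 and 6.19 in AOS and 4.89, 7.12 and 7.15 in control spleens. Every HFD+AOS library was above the other 9 of the design, but the HFD+control-FMT libraries, outside it, were higher still at 17.96, 21.41 and 16.34 FPKM (interaction 0.64 ± 0.24 SE, limma adjusted p = 0.25). *Per3*, a clock repressor in phase with it, had an interaction of 0.58 and was at 3.18, 3.56 and 4.13 FPKM in HFD+AOS and 3.1, 4.38 and 3.79 in HFD+control-FMT spleens, whereas *Per1* had −0.35, and the list of 12 such genes had a median of 0.03. The labels used here give no hour of collection, and the part of the hour was not tested.

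*Hcar2*, the receptor of butyrate and niacin, had the same form at 5.95, 4.92 and 5.44 FPKM in HFD+AOS and 3.39, 3.17 and 3.9 in HFD spleens, against 2.27, 2.76 and 3.79 in AOS and 2.58, 2.63 and 3.4 in control spleens. All HFD+AOS libraries again exceeded the other 9 of the design (interaction 0.51 ± 0.211 SE, limma adjusted p = 0.274). Heat shock genes had a median interaction of −0.44, from −0.80 on the diet and −0.21 without it, with 0 of 12 at an unadjusted p under 0.05. Their sums varied widely between libraries of a group, at 2075, 1848 and 2828 FPKM in HFD+AOS and 2250, 3855 and 5559 in HFD, against 2802, 2943 and 3468 in AOS and 2196, 3489 and 4631 in control libraries.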
